A study of Homo sapiens with 16 samples.

Results

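The 7 genes described here belong to the amino acid stress response driven by the transcription factor ATF4, and were read in AsPC-1 cells across 6 groups of arrays. They are ASNS, PSAT1, CTH, AARS1, CHAC1, ATF3 and GDF15. The members were all probe sets annotated to 1 of these genes alone, which gave 9 probe sets of the 9554 in the deposited table, or 7 of the 5250 genes that could be named. PSAT1 and CTH were each read by 2 probe sets and the other genes by 1. The genes were chosen because they were high in cells given ICG-001, so every value of ICG-001 against DMSO is given as a description and without a test.

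ATF4 protein is made when the kinase GCN2, PERK, HRI or PKR phosphorylates the translation factor eIF2α, which lowers protein synthesis in general and favours translation of the ATF4 mRNA. GCN2 responds to uncharged tRNA and PERK to unfolded protein in the endoplasmic reticulum. ATF4 pairs with C/EBP proteins on composite sites in promoters and induces genes that make, import and attach amino acids to tRNA, together with regulators of stress and survival.

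AsPC-1 is a cell line from a human pancreatic adenocarcinoma. ICG-001 is a compound known to bind CBP, a transcriptional coactivator, and to keep it from β-catenin. RNA was read on 16 Affymetrix arrays. A probe set on them is a group of short probes read as 1 value, and some probe sets are annotated to several genes. The groups were 10 µM ICG-001 for 6 h, DMSO vehicle for 6 h, 10 µM ICG-001 for 24 h and DMSO for 24 h, with 3 arrays each. A separate experiment had cells 48 h after transfection with 20 nM of an siRNA against CTNNB1, the gene of β-catenin, or of a control siRNA, with 2 arrays each. Both siRNA groups were transfected by lipid reagent. All arrays carry the label of this line, the labels name no genetic change in any group, and the medium held serum. The labels call the arrays biological replicates without saying whether they came from separate cultures, so p-values measure only the spread between these samples.

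Every one of the 9554 probe sets had a coefficient of variation of at least 0.40 over the 16 arrays after rounding to 2 decimals, the lowest being 0.399955, so the table is a selection of variable probe sets. Over the 10 arrays without ICG-001, 2 of the 9 member probe sets reached 0.40, those of CHAC1 (0.665) and ATF3 (0.402). The other 7 were thus in the table through their ICG-001 values. CTNNB1 had no probe set of its own among those analysed here, so the knockdown itself was not checked. Of 9 ductal and epithelial markers 5 were measured, and 4 of those were lower on every siRNA array than on every drug experiment array. CDH1, the epithelial cadherin E-cadherin, read 8.68 to 16.6 on the siRNA arrays and 273 to 371 on the drug experiment arrays. KRT19, a ductal keratin, read 7.23 to 15.8 on the siRNA arrays and 73.4 to 110 on the drug experiment arrays. KRT7 read 80.3 to 255 on the siRNA arrays and 708 to 1590 on the drug experiment arrays, and MUC1 242 to 348 and 939 to 1424, whereas S100P overlapped. The summed level of these 5 markers was 1427 to 1452 with CTNNB1 siRNA and 1569 to 1713 with control siRNA. It was 7304 to 7632 with ICG-001 and 4171 to 4422 with DMSO at 6 h, and 9105 to 9379 with ICG-001 and 3552 to 4092 with DMSO at 24 h. S100P set those group differences in the drug experiment, at 4535 to 4782 with ICG-001 and 1456 to 1569 with DMSO at 6 h, and 6527 to 6909 with ICG-001 and 686 to 753 with DMSO at 24 h. The other 4 markers summed to 2769 to 2849.82 with ICG-001 and 2715 to 2854 with DMSO at 6 h, and 2445 to 2578 with ICG-001 and 2824 to 3339.5 with DMSO at 24 h. On the siRNA arrays the 4 summed to 521 to 552 with CTNNB1 siRNA and 399.7 to 445 with control siRNA. Median intensities were 12.7 to 13.05 on the siRNA arrays and 20.6 to 28.6 on the drug experiment arrays. ATF4 read 4694 to 5023 on the siRNA arrays and 4649 to 5275 on the DMSO arrays. The siRNA arrays come from a separate experiment and differ in transfection, time and scaling, and possibly in their cells. These parts cannot be told apart here, and this applies to every siRNA value below. The part of the markers in the results was not tested. The leukocyte marker PTPRC read 4.07 to 31.7 and the endothelial markers PECAM1 and KDR at most 21.3 on any array. The 3 fibroblast markers measured summed to 81.0 to 166, with groups overlapping.

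Composite C/EBP-ATF sites are the element through which ATF4 acts, so the promoters of the 7 genes were searched for the core TGATGNAA on both strands, in the window from 250 bases before to 50 after each start in RefSeq (GRCh38.p14). All 7 genes matched the promoter table, with 9 promoters in all. The core was in a promoter of 4 of the 7 genes, beside 1217 of 27305 genes (4.46%) and 1270 of 35116 promoters (3.62%) in the whole table. Because the genes were listed as ATF4 targets, this share describes the choice of genes. The 4 matches are shown in 48 bases around each, read 5′ to 3′ on the gene's own strand, with the core in capitals.
ASNS: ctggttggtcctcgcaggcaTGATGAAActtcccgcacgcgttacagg
AARS1: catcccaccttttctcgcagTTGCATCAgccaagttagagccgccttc
CHAC1: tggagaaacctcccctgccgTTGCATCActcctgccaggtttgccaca
ATF3: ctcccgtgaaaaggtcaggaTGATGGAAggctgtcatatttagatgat

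The ASNS window lies at chr7:97872449-97872496, with the gene on the minus strand and the core at -68 to -61 from the start. It falls within the annotated span of ASNS, which has a more distant start as well. The AARS1 window lies upstream of the gene at chr16:70289666-70289713, also with the gene on the minus strand, and its core at -187 to -180 is read on the strand opposite to the gene. The CHAC1 window lies upstream of the gene at chr15:40953242-40953289, on the plus strand, with the core at -209 to -202 again on the opposite strand. AARS1 and CHAC1 shared the same letters, TTGCATCA. The ATF3 window lies in the first of 2 ATF3 promoters, upstream of its start, at chr1:212565196-212565243 on the plus strand, with the core at -191 to -184. PSAT1, CTH and GDF15 had no match in these windows, which says only that these letters are not there. The ATF/CRE palindrome TGACGTCA was in 0 of the 7 genes and in 614 genes of the table (2.25%). The endoplasmic reticulum stress element, also searched on both strands, was in 0 of the 7 and in 25 genes of the table (0.0916%). A match is a description of letters and not of binding.

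In cells given ICG-001 all 7 genes were higher than in DMSO at both times, and no array of an ICG-001 group overlapped an array of its DMSO group. At 6 h, 15.0% of the 5250 genes were higher with no overlap, and at 24 h 21.0% were. By limma at an adjusted p under 0.05, 5.56% of genes were called higher at 6 h and 9.22% at 24 h. Nothing is read from these shares for the 7 genes, which were chosen on this contrast. In arrays of whole RNA, fewer cells that express a gene and less RNA per cell cannot be told apart. Values below are deposited intensities by array, and log2 differences are ICG-001 minus DMSO after adding 16 and quantile normalization, with the standard error (SE) of the fit. The ratio of 2 printed intensities therefore differs from the printed difference. For some genes where the scalings part, the difference on the deposited scaling follows. Where it is not printed the scalings can still differ.

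**Figure D1:**
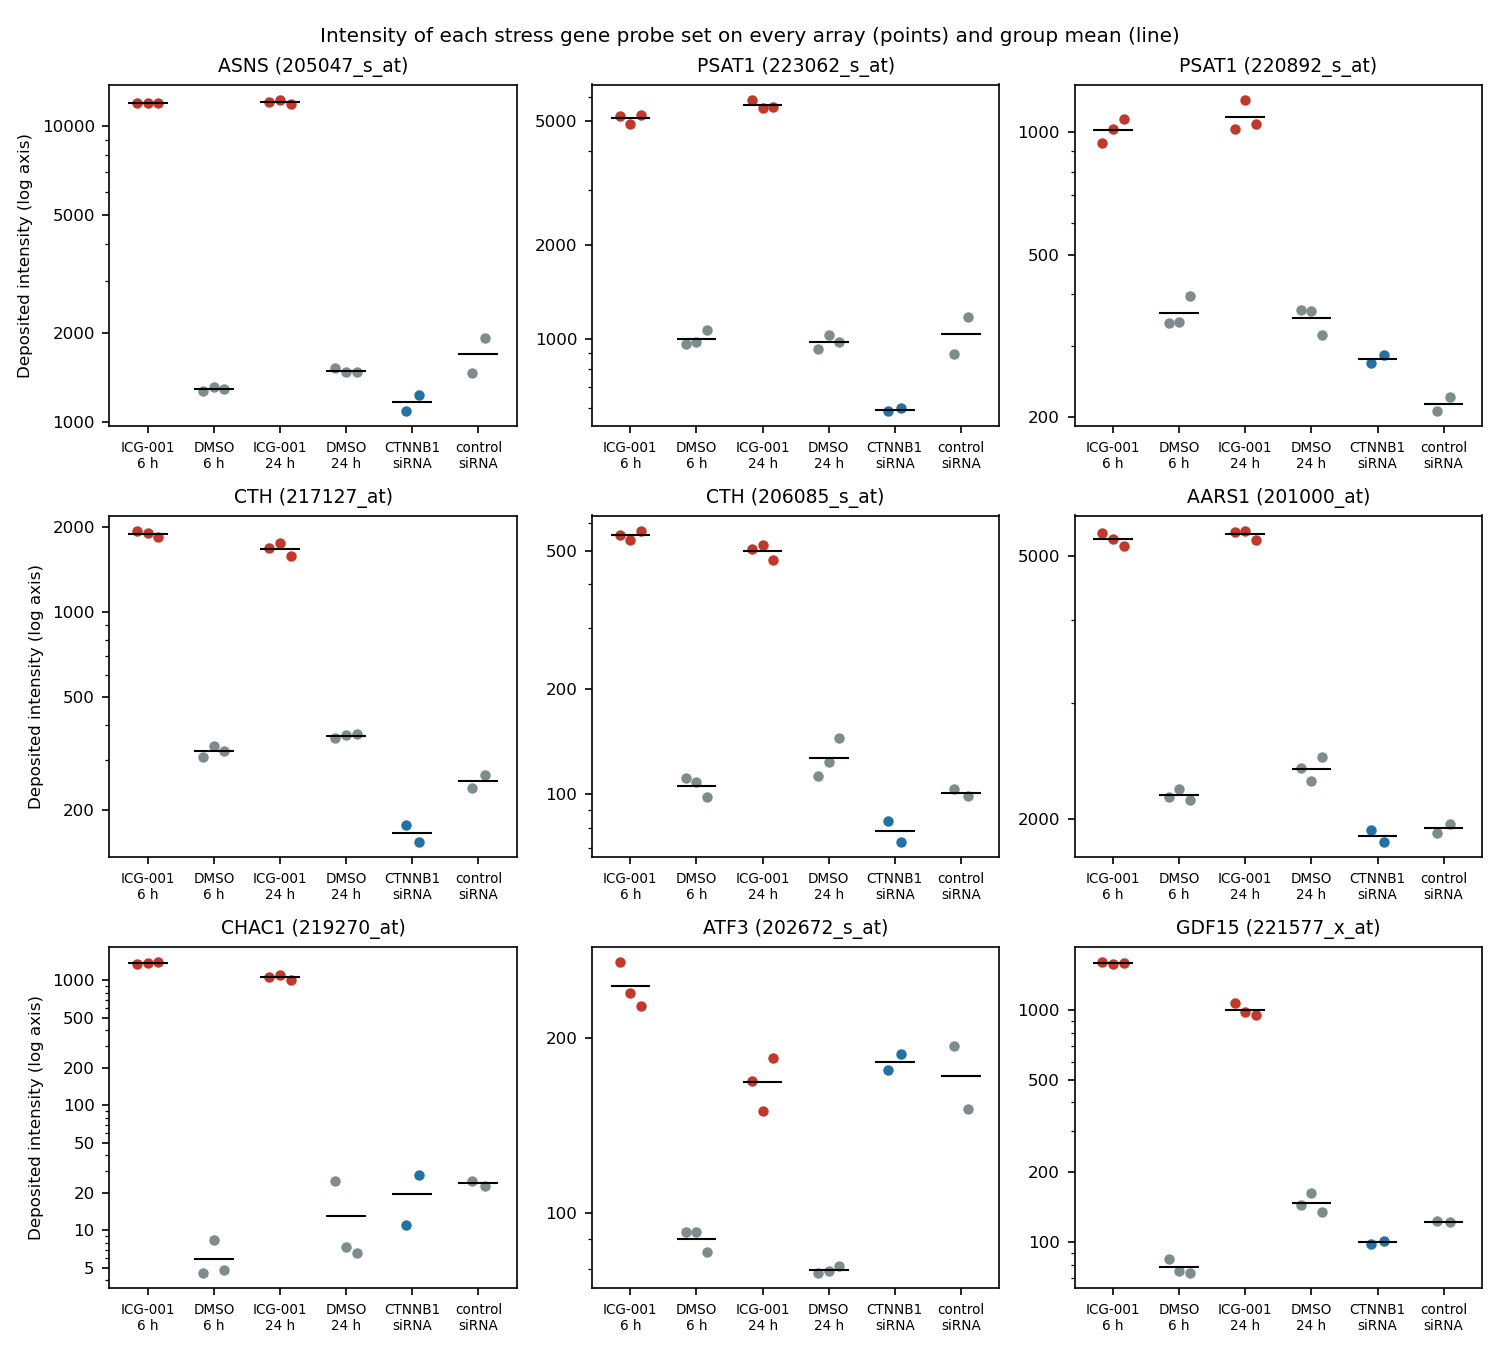
Deposited intensity (log axis) of the 9 member probe sets in each of the 6 groups. Points are arrays (3 per drug experiment group, 2 per siRNA group) and lines are group means. All ICG-001 points lie above the DMSO points of the same time, and ATF3 alone has siRNA points between 151 and 193.4 that reach the ICG-001 points at 24 h.

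ASNS encodes asparagine synthetase, which makes asparagine from aspartate and glutamine. It read 11933, 11978 and 11959.81 in ICG-001 arrays at 6 h, against 1280.18, 1319 and 1292 in DMSO arrays. At 24 h it read 12004, 12231 and 11843 in ICG-001 arrays, against 1523, 1481 and 1474 in DMSO arrays. The ICG-001 arrays of both times overlapped each other, and DMSO arrays lay far below. The difference was 2.75 ± 0.11 (SE) at 6 h and 2.61 ± 0.11 at 24 h, or 3.19 and 3.00 on the deposited scaling. ASNS ranked between 1 and 3 among the 9554 probe sets on each ICG-001 array, where quantile normalization sets a value by its rank. Over all 6 groups the order of mean levels was ICG-001 24 h, ICG-001 6 h, control siRNA, DMSO 24 h, DMSO 6 h and CTNNB1 siRNA. In deposited intensity neighbours overlapped between the ICG-001 groups and between control siRNA and DMSO 24 h. After quantile normalization the order was the same, but control siRNA did not overlap DMSO 24 h, and DMSO 6 h overlapped CTNNB1 siRNA.

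PSAT1 encodes phosphoserine aminotransferase, an enzyme of serine synthesis. Its brighter probe set, 223062_s_at, read 5183, 4912 and 5223 in ICG-001 arrays at 6 h, against 961, 980.01 and 1066 in DMSO arrays. At 24 h it read 5849.96, 5499 and 5569 in ICG-001 arrays, against 929.84, 1027 and 978 in DMSO arrays. By this probe set PSAT1 was the 1 member whose ICG-001 arrays at 24 h all lay above those at 6 h. The difference was 1.82 ± 0.09 at 6 h and 1.96 ± 0.09 at 24 h, or 2.33 and 2.51 on the deposited scaling. The second probe set, 220892_s_at, averaged 1012 ± 67.6 in ICG-001 and 359.5 ± 32.04 in DMSO arrays at 6 h (SD, n = 3 each). At 24 h it averaged 1087 ± 96.7 in ICG-001 and 349.8 ± 27.0 in DMSO arrays. It moved in the same direction by less, with differences of 1.23 and 1.33.

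CTH encodes cystathionine gamma-lyase, the last enzyme of the route that makes cysteine from methionine. Its brighter probe set, 217127_at, read 1933, 1898 and 1839.71 in ICG-001 arrays at 6 h, against 307, 336 and 325 in DMSO arrays. The 24 h values were 1678, 1748 and 1575 in ICG-001 arrays, against 359, 368 and 371 in DMSO arrays. The ICG-001 arrays at 24 h all lay below those at 6 h, and the DMSO arrays at 24 h all above those at 6 h. The difference was 2.26 ± 0.07 at 6 h and 1.83 ± 0.07 at 24 h, or 2.49 and 2.14 on the deposited scaling. Probe set 206085_s_at gave 2.23 at 6 h and 1.78 at 24 h, with means of 553 ± 17.1 in ICG-001 and 105.7 ± 6.83 in DMSO arrays at 6 h. For 217127_at no 2 neighbouring groups overlapped in the order ICG-001 6 h, ICG-001 24 h, DMSO 24 h, DMSO 6 h, control siRNA and CTNNB1 siRNA, and the second probe set kept that order with DMSO 6 h and control siRNA overlapping.

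AARS1 encodes alanyl-tRNA synthetase, which charges tRNA with alanine. It read 5412, 5306 and 5178 in ICG-001 arrays at 6 h, against 2163, 2219.95 and 2134 in DMSO arrays. Its 24 h values were 5436, 5449 and 5288 in ICG-001 arrays, against 2385, 2287 and 2481 in DMSO arrays. Its difference was 0.74 ± 0.05 at 6 h and 0.55 ± 0.05 at 24 h, the smallest of the 7 after quantile normalization. At 24 h ATF3 was the smallest on the other scalings, with 0.94 for ATF3 and 1.17 for AARS1 on the deposited scaling and 0.81 for ATF3 and 1.05 for AARS1 with median centring. On the deposited scaling AARS1 was 1.28 at 6 h, so the scaling moved AARS1 by more than it moved any other member relative to its size. At 6 h AARS1 stood 121st of 5250 genes by size of rise and at 24 h 368th.

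CHAC1 encodes a gamma-glutamylcyclotransferase that breaks down glutathione. It read 1355, 1369.9 and 1403 in ICG-001 arrays at 6 h, against 4.58, 8.31 and 4.78 in DMSO arrays. At 24 h it read 1072, 1112 and 1005 in ICG-001 arrays, against 25.1, 7.40 and 6.59 in DMSO arrays. The fitted difference was 5.79 ± 0.21 at 6 h and 5.06 ± 0.21 at 24 h. CHAC1 lay below the median intensity of its array on 5 of the 6 DMSO arrays, and the files give no detection call, so these differences are no measured fold, and the size depended on the number added before log2. With 1 added it was 7.53 at 6 h and 6.33 at 24 h, and with 64 added 4.15 and 3.65. In each of these settings it ranked 1st of 5250 genes by fitted rise. The 4 groups without ICG-001 overlapped their neighbours in level throughout.

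ATF3 encodes a transcription factor of the ATF/CREB family that is induced by many stresses. It read 270.1, 239 and 227 in ICG-001 arrays at 6 h, against 92.6, 92.6 and 85.5 in DMSO arrays. The values at 24 h were 169, 149.6 and 184 in ICG-001 arrays, against 78.8, 79.4 and 80.8 in DMSO arrays. All ICG-001 arrays at 24 h lay below those at 6 h. The difference was 1.33 ± 0.10 at 6 h and 0.89 ± 0.10 at 24 h.

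GDF15 encodes growth differentiation factor 15, a secreted protein of the TGF-β superfamily released by stressed cells. It read 1612, 1582 and 1602 in ICG-001 arrays at 6 h, against 84.4, 75.0 and 73.7 in DMSO arrays. By 24 h the values were 1074, 981 and 953 in ICG-001 arrays, against 144.8, 163 and 135 in DMSO arrays. The difference was 4.04 ± 0.08 at 6 h, the 2nd largest rise of all genes, and 2.53 ± 0.08 at 24 h. In deposited intensity no 2 groups overlapped. Their order was ICG-001 6 h, ICG-001 24 h, DMSO 24 h, control siRNA, CTNNB1 siRNA and DMSO 6 h. After quantile normalization control siRNA (mean log2 7.55) and CTNNB1 siRNA (7.30) stood above DMSO 24 h (7.23), and CTNNB1 siRNA overlapped DMSO 24 h.

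The difference between ICG-001 and DMSO changed with time by unlike amounts in the 7 genes. The difference at 24 h minus that at 6 h was -1.51 ± 0.11 for GDF15, -0.73 ± 0.29 for CHAC1, -0.44 ± 0.14 for ATF3, -0.43 ± 0.10 for CTH and -0.20 ± 0.07 for AARS1. For ASNS it was -0.14 ± 0.16 and for PSAT1 0.14 ± 0.13, about the size of the SE. These are fitted values without a test. On the deposited scaling AARS1 was at -0.11. CHAC1 was at -0.48 without the first DMSO 24 h array, the one that read 25.1, and at -1.20 with 1 added before log2. Leaving out each array in turn gave -0.27 to -0.03 for ASNS and 0.08 to 0.19 for PSAT1, and median centring gave -0.31 for ASNS and 0.06 for PSAT1. Both sides entered the GDF15 value, since 24 h minus 6 h was -0.68 ± 0.08 in ICG-001 arrays and 0.83 ± 0.08 in DMSO arrays. For ATF3, 24 h minus 6 h was -0.63 ± 0.10 in ICG-001 arrays and -0.19 ± 0.10 in DMSO arrays. All 210 values of the members in ICG-001 against DMSO under the alternative settings were above 0. The genes were chosen for being high with ICG-001, so this restates their choice and is no check of it.

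**Figure D2:**
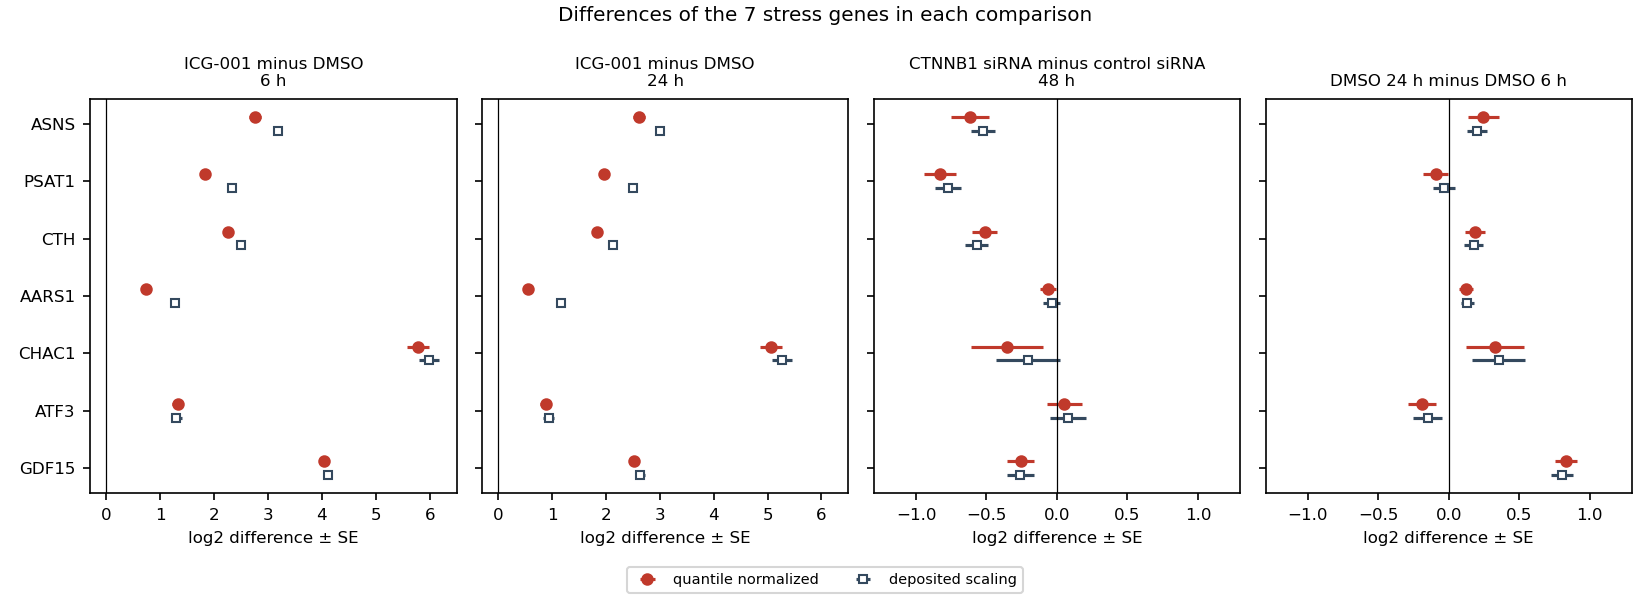
Log2 difference ± SE of each of the 7 genes in 4 comparisons, quantile normalized (filled circles) and on the deposited scaling (open squares). The axes of the ICG-001 panels are wider than those of the other panels. All 7 genes lie above 0 in both ICG-001 panels, ASNS, PSAT1 and CTH lie furthest below 0 with CTNNB1 siRNA, and GDF15 stands apart in DMSO with time.

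The siRNA experiment asked what changes when β-catenin itself is targeted. The choice of members is not known to rest on it, although its results were known when they were chosen. ASNS, PSAT1 and CTH, the enzymes of amino acid synthesis, were lower with CTNNB1 siRNA than with control siRNA at 48 h, and the other 4 genes did not pass the test. The 3 of 7 called lower stand beside 5.83% of all genes called lower, and 0 of 7 were called higher by limma (0 at an unadjusted p under 0.05) beside 6.19%. The arrays of 4 genes did not overlap, all lower, beside 20.4% of genes with lower and no overlap. With 2 arrays against 2 an exact two-sided permutation test cannot go below 0.333, and limma's p rests on the spread shared over 16 arrays.

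PSAT1 by 223062_s_at read 588 and 599 with CTNNB1 siRNA, against 892 and 1178 with control siRNA. The difference was -0.83 ± 0.11 (limma adjusted p = 3.47e-05). The second PSAT1 probe set went the other way, at 272 and 285 with CTNNB1 siRNA and 208 and 224 with control siRNA. Its difference was 0.28 ± 0.10 (limma adjusted p = 0.0883), and on the deposited scaling 0.35 (adjusted p = 0.0364). The 2 probe sets correlated at r = 0.94 over all 16 arrays, which include the ICG-001 groups. The fall of PSAT1 therefore holds for 1 of its 2 probe sets.

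CTH by 217127_at read 177 and 155 with CTNNB1 siRNA, against 240.2 and 267 with control siRNA. The difference was -0.51 ± 0.09 (limma adjusted p = 0.000705). Probe set 206085_s_at read 83.8 and 73.0 with CTNNB1 siRNA, against 103 and 98.6 with control siRNA, a difference of -0.28 ± 0.12 that did not pass (limma adjusted p = 0.136). Both CTH probe sets were lower on both CTNNB1 siRNA arrays.

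ASNS read 1095 and 1241 with CTNNB1 siRNA, against 1471 and 1923 with control siRNA. The difference was -0.62 ± 0.14 (limma adjusted p = 0.00459). This call rested on single arrays. Without the second control siRNA array it was -0.37 (limma adjusted p = 0.0901), and without the first CTNNB1 siRNA array -0.50 (limma adjusted p = 0.0616).

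GDF15 read 98.1 and 101.3 with CTNNB1 siRNA, against 123 and 122 with control siRNA. Those arrays did not overlap, but the difference of -0.26 ± 0.10 did not pass (limma adjusted p = 0.1001). AARS1 read 1926 and 1848 with CTNNB1 siRNA, against 1909 and 1965 with control siRNA, at -0.06 ± 0.06 (limma adjusted p = 0.58). ATF3 read 176 and 187.5 with CTNNB1 siRNA, against 193.4 and 151 with control siRNA, at 0.05 ± 0.12 (limma adjusted p = 0.867). The AARS1 and ATF3 arrays overlapped between the groups. CHAC1 read 11.1 and 27.7 with CTNNB1 siRNA, against 24.9 and 22.6 with control siRNA, at -0.35 ± 0.25 (limma adjusted p = 0.453). CHAC1 was called only without the second CTNNB1 siRNA array, at -0.85 (limma adjusted p = 0.0293), and was 0.14 without the first.

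Levels of ATF3, CHAC1, GDF15 and ASNS in control siRNA cells stood above those in DMSO cells at 6 h, in arrays of separate experiments that differ in transfection, time and scaling, so that their parts cannot be told apart. The epithelial markers CDH1, KRT19, KRT7 and MUC1 also differ between these arrays, and their part was not tested. ATF3 averaged 172 ± 29.9 with control siRNA (SD, n = 2) and 90.2 ± 4.10 in DMSO at 6 h (SD, n = 3), a normalized log2 difference of 1.32 with no test. CHAC1 averaged 23.7 ± 1.65 with control siRNA and 5.89 ± 2.10 in DMSO at 6 h, a difference of 1.45 between dim values. GDF15 averaged 122.5 ± 0.735 with control siRNA and 77.7 ± 5.85 in DMSO at 6 h, a difference of 1.16. For ASNS the difference was 0.56, and PSAT1, CTH and AARS1 lay between -0.06 and 0.11. Against DMSO at 24 h the order depended on the scale. In deposited intensity GDF15 was lower with control siRNA (122.5 ± 0.735) than in DMSO at 24 h (147.8 ± 14.3) without overlap. The ASNS and CHAC1 arrays overlapped on that scale. After quantile normalization GDF15, ASNS and CHAC1 were each higher with control siRNA without overlap. The mean log2 values with control siRNA and in DMSO at 24 h were 7.55 and 7.23 for GDF15. They were 11.04 and 10.72 for ASNS, and 5.87 and 4.76 for CHAC1. In mean deposited intensity both siRNA groups of ATF3 stood above ICG-001 at 24 h, with overlapping arrays. After quantile normalization these arrays did not overlap. Their mean log2 values were 7.95 with CTNNB1 siRNA, 7.90 with control siRNA and 7.27 with ICG-001 at 24 h.

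In vehicle cells, GDF15 was the 1 member called by limma as changed with time. Its DMSO arrays at 24 h lay above all DMSO arrays at 6 h, a difference of 0.83 ± 0.08 (limma adjusted p = 5.49e-07), with a range of 0.58 to 0.97 under the alternative settings. That is 1 of 7 genes called higher beside 4.69% of all genes. Without overlap 4 members were higher at 24 h, ASNS, CTH, AARS1 and GDF15, beside 11.6% of genes, and ATF3 was lower, beside 10.2%. Only GDF15 passed the test among them, with limma adjusted p of 0.166 for AARS1, 0.171 for CTH, 0.265 for ASNS and 0.409 for ATF3. PSAT1 at -0.09 ± 0.09 and CHAC1 at 0.33 ± 0.21 did not pass (limma adjusted p = 0.78 and 0.539).

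Beyond the 7 members, 77 genes were listed in 4 roles of the response and 33 of them were measured. Of these 33, 19 rose and 1 fell with ICG-001 at 6 h, and 18 rose and 2 fell at 24 h. All 5250 genes held 5.56% called higher and 8.23% called lower at 6 h, and 9.22% and 11.3% at 24 h. These counts describe a selection, because the table holds only variable probe sets. Over the 10 arrays without ICG-001 the coefficient of variation was under 0.40 for all 19 genes that rose at 6 h and all 18 at 24 h, so they were in the table through their ICG-001 values. It reached 0.40 in 13 of the 33, and 0 of those 13 rose at either time. Nothing is read from the counts about the 44 listed genes that were not measured. On the deposited scaling 19 rose and 1 fell at 6 h and 20 rose and 1 fell at 24 h, while the median of all genes was 0.09 at 24 h, against -0.02 after quantile normalization. That scaling called 406 genes higher (7.73%) and 244 lower (4.65%) at 6 h, and 738 higher (14.1%) and 385 lower (7.33%) at 24 h. Quantile normalization called 292 higher and 432 lower at 6 h, and 484 higher and 592 lower at 24 h.

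ATF4, which encodes the factor itself, read 11142, 10972 and 10596 in ICG-001 arrays at 6 h, against 4721, 4719.78 and 4649 in DMSO arrays. Its mRNA was higher by 0.83 ± 0.05 at 6 h and 0.57 ± 0.05 at 24 h, or 1.21 and 0.96 on the deposited scaling. DDIT3, which encodes the stress factor CHOP, rose by 1.46 ± 0.06 at 6 h. With CTNNB1 siRNA ATF4 read 4694 and 4771, against 4959 and 5023 with control siRNA, at -0.12 (limma adjusted p = 0.24).

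In amino acid and one-carbon synthesis 3 of 9 other measured genes rose at 6 h. They were the mitochondrial folate enzyme MTHFD2 (1.88 ± 0.10), the mitochondrial phosphoenolpyruvate carboxykinase PCK2 (1.66 ± 0.05) and the serine hydroxymethyltransferase SHMT2 (0.82 ± 0.08). In the same order the deposited scaling gave 1.92, 2.15 and 1.01. The 6 that did not pass were BCAT1, ALDH1L2, GLUL, ALDH4A1, CBS and SHMT1, and the highest group mean intensity among them was 96.0. In tRNA charging 3 of 5 rose, CARS1 (0.71 ± 0.10), WARS1 (0.50 ± 0.07) and SARS1 (0.39 ± 0.05). On the deposited scaling WARS1 was 0.92 and SARS1 0.90. At 24 h CARS1 did not pass at 0.17, but passed on the deposited scaling at 0.40 (limma adjusted p = 0.0072). In amino acid transport 3 of 5 rose, the neutral amino acid carrier SLC1A4 (1.83 ± 0.11), the cystine carrier SLC7A11 (0.75 ± 0.08) and the leucine carrier SLC7A5 (0.63 ± 0.06, or 1.25 on the deposited scaling). SLC7A5 stood at 1.26 at 24 h. At that time 3 of 9 synthesis genes rose and 1 fell, 2 of 5 in tRNA charging rose and 3 of 5 in transport rose. The synthesis gene that fell was ALDH1L2 (-0.58 ± 0.19), which was dim. It read 14.4, 10.7 and 3.63 in ICG-001 arrays at 24 h, against 18.3, 20.9 and 23.6 in DMSO arrays.

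Of 14 other stress factors and regulators 10 rose and 1 fell at 6 h. Those with the largest rise were SESN2 (3.29 ± 0.06), JDP2 (1.97 ± 0.09), the pseudokinase gene TRIB3 (1.88 ± 0.06) and VEGFA (1.61 ± 0.06). A second TRIB3 probe set gave 0.36 ± 0.06, or 0.73 on the deposited scaling. SESN2 encodes a leucine sensor that restrains mTORC1, and its second probe set gave 3.10 ± 0.09. The gene that fell was ATF5, a relative of ATF4, at -0.70 ± 0.12. The counts were again 10 and 1 at 24 h, with ATF5 at -0.43 ± 0.12. On the deposited scaling 10 rose and 0 fell at 24 h, with ATF5 at -0.32 (limma adjusted p = 0.0568).

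**Figure D3:**
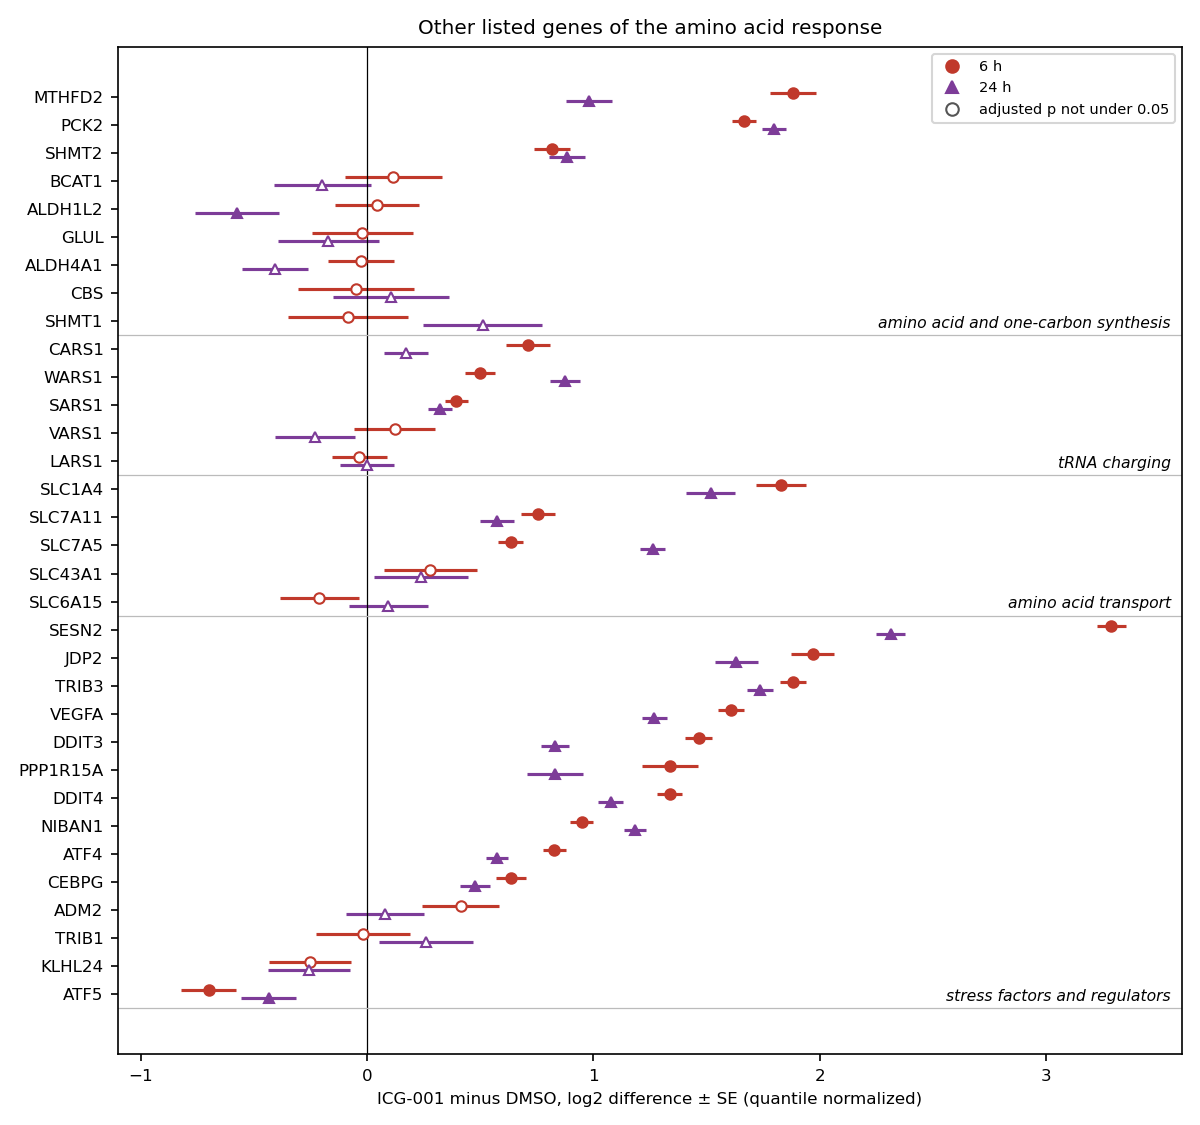
Log2 difference ± SE of ICG-001 minus DMSO for the 33 other listed genes of the response, at 6 h (circles) and 24 h (triangles), grouped by role. Filled symbols have an adjusted p under 0.05. SESN2 reaches 3.29 at 6 h, and ATF5 lies below 0 at both times.

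The neighbouring pathways held genes that rose and genes that fell. Over all genes 5.56% were called higher and 8.23% lower at 6 h, and 9.22% and 11.3% at 24 h. The counts below also describe a selection of variable probe sets. On the 10 arrays without ICG-001, ERN1 read 278 to 480, HERPUD1 988 to 1585 and DNAJB9 863 to 1462, below every ICG-001 array. The coefficient of variation without ICG-001 was not computed over these lists. In glutathione and redox genes other than CHAC1, 1 of 5 rose (SLC7A11) and 3 fell at 6 h, HMOX1 (-0.70), GCLM (-0.37 ± 0.09) and SRXN1 (-0.28 ± 0.06). SRXN1 turned to 0.24 on the deposited scaling and to 0.23 with each array centred on its median, and GCLM was -0.20 on the deposited scaling (limma adjusted p = 0.19). Of 3 eIF2 kinase and phosphatase genes, PPP1R15A, the stress-induced partner of the eIF2α phosphatase, rose by 1.34 ± 0.12 and EIF2AK2, the gene of PKR, fell by 0.54 ± 0.13. Of 6 endoplasmic reticulum genes 4 rose at 6 h, among them ERN1 (1.67 ± 0.06), HERPUD1 (0.85 ± 0.06) and DNAJB9 (0.84 ± 0.06), with HERPUD1 at 1.40 and DNAJB9 at 1.31 on the deposited scaling. HSP90B1 fell at -0.55, or -0.20 on the deposited scaling (limma adjusted p = 0.29). Of 8 measured p53 targets other than the members 3 rose, CDKN1A (0.86, or 1.41 on the deposited scaling), TNFRSF10B (0.73) and SESN2, and AEN fell at -0.66, or -0.25 on the deposited scaling. At 24 h, 1 of the 5 redox genes rose and 1 fell, 1 of the 3 eIF2 genes rose, 5 of the 6 endoplasmic reticulum genes rose and 1 fell, and 3 of the 8 p53 targets rose and 2 fell. On the deposited scaling 2 redox genes rose and 1 fell at 6 h, and 3 rose at 24 h.

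With CTNNB1 siRNA, 3 of the 33 listed genes rose and 3 fell, beside 6.19% called higher and 5.83% called lower over all genes, with a median of 0.00 against 0.01 over all genes. Those that rose were SLC6A15 (0.79 ± 0.21), JDP2 (0.49 ± 0.12) and SESN2 (0.39 ± 0.08), and those that fell were VEGFA (-0.80 ± 0.07), WARS1 (-0.26 ± 0.08) and TRIB3 (-0.24). SLC6A15 was dim, at 14.87 and 14.94 with CTNNB1 siRNA and 6.02 and 4.47 with control siRNA. The median intensities of the siRNA arrays were 12.7 to 13.05. The second SESN2 probe set did not pass at 0.21 (limma adjusted p = 0.23). The second TRIB3 probe set overlapped, at 138 and 147 with CTNNB1 siRNA and 140.5 and 146 with control siRNA. SLC6A15, WARS1 and TRIB3 did not pass on the deposited scaling (limma adjusted p = 0.19, 0.1 and 0.16). Of the 9 other synthesis genes 0 passed by limma, and 1 did at an unadjusted p under 0.05. Of the 5 glutathione and redox genes other than CHAC1, 2 rose and 1 fell. HMOX1, the heme oxygenase gene, rose by 2.41 ± 0.09 (limma adjusted p = 2.07e-12) and GCLM by 0.68 ± 0.11. SRXN1 fell, at -0.70 ± 0.07. In the remaining groups, 3 of 6 endoplasmic reticulum genes rose, with ERN1 at 0.56 ± 0.07 and DNAJB9 at 0.42 ± 0.08. Of the 8 p53 targets 2 rose and 1 fell, with CDKN1A at 0.52 and MDM2 at -1.01 ± 0.10. In DMSO with time 2 of the 33 rose and 6 fell, beside 4.69% and 3.94% of all genes, with a median of -0.03.

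Among the 7 members, the 21 pairwise Pearson correlations of normalized log2 values over 16 arrays ran from 0.27 to 0.99. The 15 pairs without ATF3 ran from 0.92 to 0.99, and ATF3 correlated with the other 6 at 0.27 to 0.54. These points share groups, and 6 of the 16 arrays are ICG-001 arrays. The 7 genes were chosen for high values on those arrays, so high correlations in part restate that choice. Of all other genes, SLC1A4 was most like the mean of the 7 standardized profiles (r = 0.99), followed by DDIT4, SESN2, PCK2 and MTHFD2 (r = 0.97 each). SLC1A4 averaged 432 ± 24.9 in ICG-001 and 112 ± 3.91 in DMSO arrays at 6 h, and 81.4 ± 28.5 with CTNNB1 siRNA and 87.1 ± 9.82 with control siRNA.

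The gene most like each member differed between them. It was PCK2 for ASNS and AARS1 (r = 0.98 each), SLC1A4 for CHAC1 and GDF15 (r = 0.98 each) and the kinesin gene KIF21B for PSAT1 and CTH (r = 0.99 and 0.98). KIF21B averaged 383 ± 13.2 in ICG-001 and 55.2 ± 9.10 in DMSO arrays at 6 h, and 13.1 ± 5.12 with CTNNB1 siRNA and 26.9 ± 7.91 with control siRNA. For ATF3 it was SLFN5, a Schlafen family gene (r = 0.94). SLFN5 averaged 113 ± 4.83 in ICG-001 and 34.1 ± 4.24 in DMSO arrays at 6 h, and 74.7 ± 2.69 with CTNNB1 siRNA and 64.3 ± 18.9 with control siRNA. Like ATF3, it averaged more in both siRNA groups than in both DMSO groups. In the promoter search, 25 of the 33 other listed genes that were measured had a promoter in the table. The core TGATGNAA was in 5 of these 25, BCAT1, CARS1, CEBPG, JDP2 and SLC1A4, beside 4.46% of all genes. Listed genes that were not measured were not searched. Because the genes were listed for their roles in the response, this share describes the choice of genes.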

How the data were processed

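Per the labels, Affymetrix arrays were hybridised with total RNA carrying biotin. The deposited values are linear intensity values per probe set, from 0.55 to 19346.51, and 1.1% of them were exactly 1. For the authors' summary method, scaling and selection of probe sets, the sources used here give nothing. The platform table named 1 gene for 6442 probe sets, several for 252 and none for 2860, and 6432 symbols were updated by gene identifier. Array medians differed by 0.64 on the log2(intensity + 16) scale, above the limit of 0.5 set for keeping the deposited scaling, so arrays were quantile normalized. The medians differed by 0.28 within the drug experiment and by 0.02 within the siRNA experiment. The brightest probe set was kept per gene (5250 genes). A group means model of the 16 arrays, with 10 residual degrees of freedom, was fitted in limma (version 3.58.1, under R version 4.3.3) using an intensity trend, two-sided tests and Benjamini-Hochberg adjustment over all genes, called at 0.05. A second PSAT1 or CTH probe set was tested in a fit of all named probe sets. The number of arrays limits the precision.

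The members, lists and rules were chosen with earlier results of these data known. Named genes were the members, ATF4, DDIT3, TRIB3, SESN2, SLC7A11 and CTNNB1 where measured, up to 4 called genes per list with the largest change at 6 h, up to 2 per list with CTNNB1 siRNA, and the genes of highest correlation. Genes named only as complete counts or as promoter matches fall outside that rule and were named after their values were seen. The 8 lists cover synthesis, tRNA charging, transport, glutathione and redox, stress factors, eIF2 kinases, endoplasmic reticulum genes and p53 targets. Promoter sequences are those of RefSeq (GRCh38.p14). Alternatives were the deposited scaling, median centring, 1 or 64 added before log2, a filter at a mean intensity of 32, separate probe sets, separate experiments, no trend, a replicate block and leaving out each array.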

Additional observations from a re-analysis of the deposited data

Results flagged for a closer look

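TNFRSF10B, which encodes the death receptor DR5 and is one of the listed p53 targets, was 0.73 ± 0.07 higher with ICG-001 than with DMSO at 6 h and -0.23 at 24 h, and every normalized array lay on the opposite side at the other time. The difference between the times was not tested. On the deposited scaling the 24 h value was 0.05, with intensities of 413 ± 15.0 in ICG-001 and 399 ± 13.2 in DMSO arrays at 24 h, and 888 ± 59.1 in ICG-001 and 435 ± 12.5 in DMSO arrays at 6 h (SD, n = 3 each).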

How the results depend on the processing

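The genes called over the whole table numbered 724 with ICG-001 at 6 h, 1076 at 24 h, 631 with CTNNB1 siRNA and 453 in DMSO with time. For CTNNB1 siRNA the count was 414 with median centring and 289 with only the siRNA arrays in the fit, which has fewer samples. The cause of the median centring value was not tested. Median centring gave 370 genes higher and 222 lower at 6 h, and 544 higher and 554 lower at 24 h. Leaving out each array gave 623 to 662 genes at 6 h, 934 to 1024 at 24 h, 484 to 669 with CTNNB1 siRNA and 371 to 413 in DMSO with time. PSAT1 (223062_s_at) and CTH (217127_at) were called lower with CTNNB1 siRNA under each of 13 alternatives (highest limma adjusted p 0.00679 and 0.0302), and ASNS under 11 of 13. With only genes at a mean intensity of 32 in a group, CHAC1 was kept through its ICG-001 groups alone. The replicate numbers did not pair the arrays, as same-numbered arrays correlated at -0.06 to 0.09 in their deviations and 3 of 9 correlated best with their own number. The replicate block gave 734 genes at 6 h, 1093 at 24 h, 656 with CTNNB1 siRNA and 467 in DMSO with time, and changed no call of a member.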
